A study of Mus musculus with 6 samples.

Results

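The eosinophil genes described here were 9 genes that mark or arm the eosinophil, a granulocyte of parasite defence and allergy. They were Epx, Prg2, Prg3, Ear1, Ear2 and Ear6, which encode proteins of the eosinophil granule, and Il5ra, Ccr3 and Siglecf, which encode surface receptors. They were chosen by symbol, and the reads of each gene's transcripts were summed. All 9 were found among the 53458 genes of the files, 8 were among the 22170 genes tested, and 6 averaged 1 or more counts-per-million (CPM). Ear1 had too few reads to be tested.

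RNA was sequenced from 6 mice with acute myeloid leukaemia (AML), 3 of genotype Cebpa-/p30 Tet2+/+ (mice 19, 23 and 24) and 3 of genotype Cebpa-/p30 Tet2-/- (mice 5, 7 and 8). Both groups carried a Cebpa allele that yields the short p30 isoform of C/EBPα, a transcription factor of granulocyte development. Their other Cebpa allele was floxed and deleted by Mx1-Cre, an interferon-inducible recombinase switched on with Poly(I)-Poly(C). The Tet2-/- group also lost Tet2, a methylcytosine dioxygenase, through floxed Tet2 alleles and the same Cre. Donor marrow of the C57BL/6 strain had been transplanted into lethally irradiated adult female recipients of the C57BL/6 J.SJL strain, which carries CD45.1, and marrow taken from moribund recipients was frozen, thawed and sorted. Mice were sampled when moribund, and the age of each sequenced mouse was not given in the sources used here, so genotype and time since transplantation cannot be told apart. Whether mice of a group shared a donor was not given either, and the p-values describe the spread between these 6 mice. The sort kept DAPI-CD45.2+CD3-B220-Ter119- cells, that is live donor-derived cells that were neither lymphoid nor erythroid. No marker in that gate removes eosinophils, basophils or their precursors.

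Eosinophils arise in the marrow from progenitors that acquire the receptor for interleukin 5 (IL-5). That receptor pairs a ligand-specific alpha chain, Il5ra, with the beta chain Csf2rb, which the receptors for IL-3 and GM-CSF also use, and it signals through Jak2, Lyn and Stat5. GATA factors and C/EBP factors act on eosinophil genes, and Gata1 is needed for the lineage in mice. The mature cell stores major basic protein (Prg2), its homologue Prg3, a peroxidase (Epx) and ribonucleases of the Ear family. Several of these genes are found in other cells too. Il5ra is also found on B-1 cells, Siglecf and Ear transcripts in macrophages, and Prg2 in basophils.

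The sequences just upstream of the members' starts are shown because 6 of the 8 members tested had fitted values below 0 in Tet2-/- mice and because Ear1 and Ear2 are near copies of each other. RefSeq promoters (assembly GRCm38.p6) were matched for 8 of the 9 members, Prg2 not being among them, and the 250 bases before the start were searched on both strands for GATAA, for the longer TGATAA that contains it, and for the C/EBP motif TTGCNNAA. GATAA was found in 3 of 8 members, Il5ra, Prg3 and Ccr3, against 22.58% of 32851 promoter windows of this length. Il5ra (chr6:106749038-106749287, minus strand) and Ccr3 (chr9:124021721-124021970, plus strand) held 1 copy each, and Prg3 (chr2:84987965-84988214, plus strand) held 2. The sequences run 5′ to 3′ on the gene's strand, and the capitals mark GATAA or its reverse complement TTATC.
Il5ra: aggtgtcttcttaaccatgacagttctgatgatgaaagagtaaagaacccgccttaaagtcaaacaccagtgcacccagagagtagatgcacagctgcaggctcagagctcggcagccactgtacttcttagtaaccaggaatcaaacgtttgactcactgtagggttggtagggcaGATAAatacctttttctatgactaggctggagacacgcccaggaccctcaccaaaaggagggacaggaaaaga
Prg3: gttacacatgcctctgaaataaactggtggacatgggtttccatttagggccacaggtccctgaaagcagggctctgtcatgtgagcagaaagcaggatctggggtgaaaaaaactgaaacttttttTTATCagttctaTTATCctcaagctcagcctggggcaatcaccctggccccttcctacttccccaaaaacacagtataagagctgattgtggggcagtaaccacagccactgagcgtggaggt
Ccr3: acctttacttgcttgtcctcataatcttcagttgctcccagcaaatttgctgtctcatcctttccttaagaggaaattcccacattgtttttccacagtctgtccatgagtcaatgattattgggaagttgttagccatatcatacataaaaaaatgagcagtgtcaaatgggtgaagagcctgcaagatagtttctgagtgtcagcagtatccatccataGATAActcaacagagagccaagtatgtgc
TGATAA was found in 1 of 8 members, in the Prg3 window where it is read on the opposite strand, against 7.942% of all windows. These matches describe the letters in a window, and binding was not measured in these samples. 

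TTGCNNAA was found in 2 of 8 members, Ear1 (chr14:43819640-43819889, minus strand) and Ear2 (chr14:44102404-44102653, plus strand), against 9.564% of all windows. These windows matched at 246 of 248 aligned bases, an identity of 99.19%, and the capitals below mark the 2 positions where they differ.
Ear1: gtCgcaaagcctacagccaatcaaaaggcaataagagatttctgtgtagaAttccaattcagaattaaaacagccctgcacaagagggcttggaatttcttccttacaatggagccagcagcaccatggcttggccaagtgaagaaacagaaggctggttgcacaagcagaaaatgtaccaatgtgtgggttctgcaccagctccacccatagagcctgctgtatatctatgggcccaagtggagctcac
Ear2: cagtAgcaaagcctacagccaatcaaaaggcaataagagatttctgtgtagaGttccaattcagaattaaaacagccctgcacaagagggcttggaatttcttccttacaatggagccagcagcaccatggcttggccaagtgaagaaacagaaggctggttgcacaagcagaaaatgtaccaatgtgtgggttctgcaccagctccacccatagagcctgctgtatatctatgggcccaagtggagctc
The Ear1 and Ear2 transcripts matched at 96.37% of aligned bases. Of the 75-base runs in Ear2-201, 23.41% also occurred in another gene (Ear1, Ear10, Ear-ps2 or Ear-ps9), and for the transcripts Ear1-201 and Ear1-202 the share was 39.28% and 49.21%. Estimates for Ear1 and Ear2 therefore depend on how the quantification split shared reads. Ear6 was further away, with 88.8% identity to Ear1 and 88.7% to Ear2 over the transcript, and it shared no run of this length. The other 6 members shared none either, and no other member overlapped the exons of another gene, while Ear1 overlapped the pseudogene Ear-ps9 on the same strand.

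The libraries held 13036643 to 16900584 estimated reads in Tet2+/+ mice and 17953277 to 32855343 in Tet2-/- mice, with mouse 5 the deepest. A floor of 3 reads corresponded to 0.0949 CPM in mouse 5 and up to 0.211 CPM in mouse 24, and it covers counting error only. CPM here was scaled by TMM, a factor that aligns most genes between libraries. Gene-level Tet2 was 73.6, 79.5 and 98.4 CPM in mice 19, 23 and 24 and 111, 79.4 and 96.7 CPM in mice 5, 7 and 8. These estimates cover the whole gene, including exons outside the floxed part, so they do not check the deletion. Cebpa was 140, 194 and 287 CPM against 158, 75.7 and 124 CPM, and these groups overlapped.

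Ordered by level per transcript length, in transcripts-per-million (TPM), the members split into 4 well detected genes, Il5ra at an intermediate level and 4 genes with means below 1 TPM. Siglecf, a sialic-acid binding inhibitory receptor, was the highest member in each of the 6 mice at a mean of 67.2 TPM. Ear2 followed at a mean of 27.3 TPM, Prg2 at 22.96 TPM and Prg3 at 11.3 TPM. The order of these neighbours was not stable, as Ear2 exceeded Prg2 in mice 23, 5 and 7 and was below it in mice 19, 24 and 8. Prg2 exceeded Prg3 in 4 of the 6 mice. Il5ra, at a mean of 1.92 TPM, was below Prg3 in each of the 6 mice. Ear6 (0.401 TPM), Epx (0.397 TPM), Ear1 (0.132 TPM) and Ccr3 (0.0850 TPM) could not be ordered, since their ranges over the mice overlapped.

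**Figure D1:**
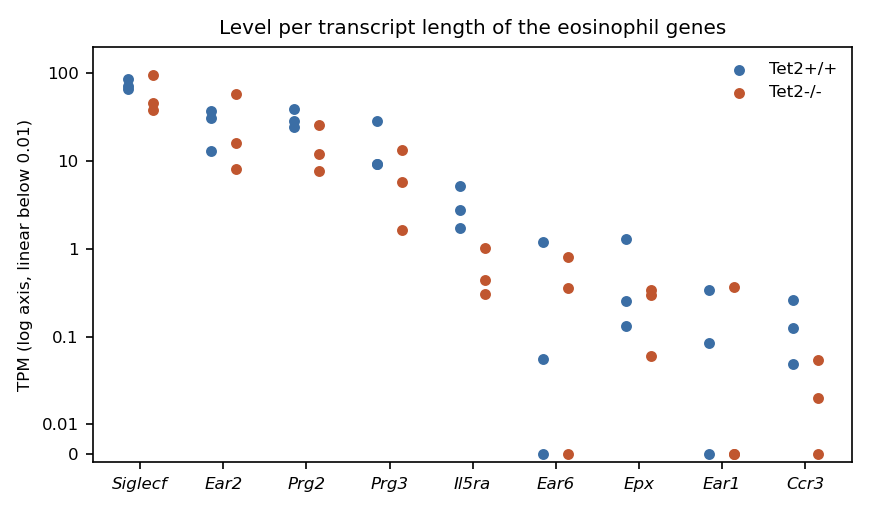
Level per transcript length of the 9 eosinophil genes, in TPM on a log axis that is linear below 0.01, ordered by the mean over 6 mice. Each point is 1 mouse, with Tet2+/+ mice in blue and Tet2-/- mice in orange. Siglecf led at a mean of 67.2 TPM, and Ear6, Epx, Ear1 and Ccr3 had means below 1 TPM.

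The name of the group was only partly matched by the data. Epx, the peroxidase that defines the mature granule, lay between 0.0604 TPM in mouse 5 and 1.30 TPM in mouse 24, whereas Siglecf in the same mice stood at 38.3 and 65.8 TPM. The ratio of Siglecf to Epx in TPM ranged from 50.7 in mouse 24 to 634 in mouse 5, and that of Prg2 to Epx from 30.4 in mouse 24 to 217 in mouse 19. Siglecf alone made up 43.6% to 67.6% of the summed TPM of the 9 genes. The genes are therefore described singly below, and their sum is not read as a number of eosinophils.

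Between genotypes, Il5ra was the member with the clearest difference, at 14.2 CPM ± 7.02 (SD, n = 3) in Tet2+/+ mice and 2.98 CPM ± 1.53 (SD, n = 3) in Tet2-/- mice. The other surface receptors split, with Ccr3 scarce and of lower mean in Tet2-/- mice and Siglecf abundant and closer in mean, and the groups of both overlapped. Prg2 and Prg3 had lower means in Tet2-/- mice, without passing the test, and Ear2 had similar means with a wide spread. In the edgeR quasi-likelihood fit over all genes, 0 of 8 members passed an adjusted p of 0.05, where 10 of 22170 genes (0.0451%) were called lower and 0% higher. At an unadjusted p under 0.05, 2 of 8 members were lower, Il5ra and Ccr3, and none was higher, beside 5.12% of all genes lower and 3% higher. With DESeq2, 1 of the 8 members was called lower at an adjusted p of 0.05, Il5ra, beside 1.83% of the 17803 genes to which DESeq2 gave an adjusted p. The median log2 fold change over the 8 members was -0.85, with 6 below 0 and 2 above, and over all genes tested it was 0.00. Fewer cells carrying a transcript and less transcript per cell cannot be told apart in these bulk samples.

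**Figure D2:**
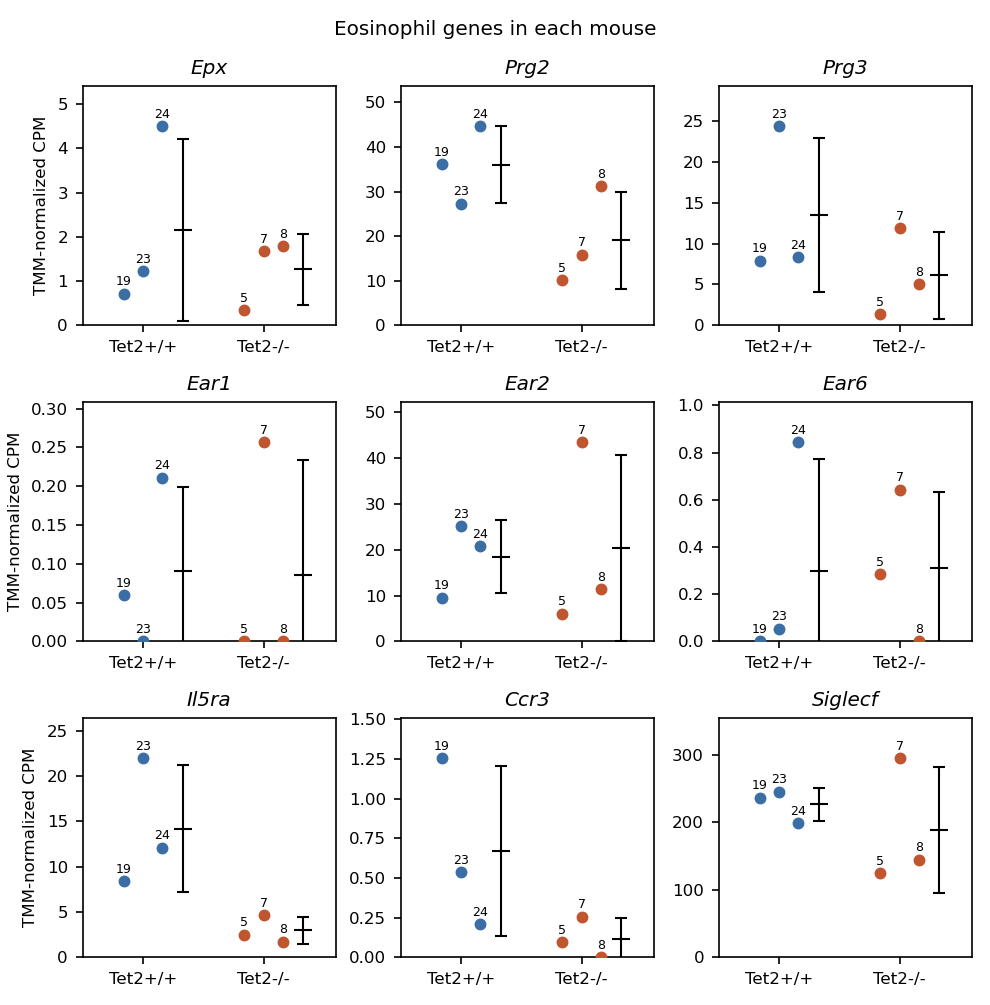
TMM-normalized CPM of the 9 eosinophil genes in each mouse, with a separate linear axis starting at 0 for each gene. Points are mice, labelled by number, the horizontal dash is the group mean and the bars are 1 SD (n = 3), with bars that would pass below 0 ending at the axis. Il5ra was the only tested member whose groups did not overlap, with 8.43 to 22.01 CPM in Tet2+/+ mice and 1.74 to 4.69 CPM in Tet2-/- mice.

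Il5ra, the IL-5 receptor alpha chain (chr6:106710357-106749037, minus strand), was 8.43, 22.01 and 12.1 CPM in mice 19, 23 and 24. It was 2.50, 4.69 and 1.74 CPM in mice 5, 7 and 8. The highest Tet2-/- mouse lay below the lowest Tet2+/+ mouse. Non-overlapping groups with lower Tet2-/- values were seen in 1 of 8 members and in 7.94% of all genes tested, and the exact two-sided permutation test gave p = 0.1, the smallest that 3 against 3 allows. The fitted log2 fold change was -2.26 ± 0.51 (SE), with an edgeR p of 0.00302 and an adjusted p of 0.318. DESeq2 gave -2.24 with an adjusted p of 0.00264, so the call for Il5ra depended on the tool, and over all settings tried the adjusted p ran from 0.00264 to 0.764 while the fold change stayed between -2.73 and -1.81. 

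The Il5ra reads were divided between a pair of protein-coding transcripts, and the third, Il5ra-201, had 0 reads in each mouse. Il5ra-202 held 62.1%, 62.0% and 59.0% of the gene's reads in mice 19, 23 and 24, and Il5ra-203 the rest. In mice 5, 7 and 8 Il5ra-202 held 89.9%, 47.6% and 100% of far fewer reads. These shares rested on 31.9 to 79.3 reads per mouse in the Tet2-/- group, and the groups overlapped.

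Since B-1 and plasma cells also carry Il5ra, genes of those cells were read in the same mice, although the sort had kept B220- cells. Of 6 B and plasma cell markers 2 were lower at an unadjusted p under 0.05 in edgeR (Jchain and Mzb1), beside 5.12% of all genes, and Jchain alone without mouse 19 or mouse 7. DESeq2 called both lower, at an adjusted p of 2e-07 and 0.048, beside 1.83% of all genes. On length-scaled counts DESeq2 called Jchain alone, with Mzb1 at an adjusted p of 0.0524. The edgeR adjusted p was 0.116 for Jchain and 0.546 for Mzb1. Jchain made up most of the summed level in Tet2+/+ mice, and the sum was 160 to 260 CPM in Tet2+/+ mice and 50.2 to 105 CPM in Tet2-/- mice. Jchain, which joins immunoglobulin polymers, was 98.5, 165 and 135 CPM against 44.1, 27.6 and 26.6 CPM. Jchain was highest in mouse 23, as Il5ra was, whereas Mzb1 was highest in mouse 19. Mzb1, a chaperone of antibody-secreting cells, was 34.7, 16.1 and 2.54 CPM against 4.18, 1.16 and 2.71 CPM, and these groups overlapped. Their part in the Il5ra result was not tested.

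Ccr3, the receptor for eotaxins (chr9:124021972-124031689, plus strand), had 21, 10 and 3 reads in mice 19, 23 and 24. It had 3, 4 and 0 reads in mice 5, 7 and 8. In CPM these were 1.26, 0.535 and 0.211 against 0.0949, 0.257 and 0, and mouse 7 lay above mouse 24. The count in mouse 8 allows up to 0.163 CPM. The fitted log2 fold change of -2.52 ± 1.04 (SE) had an edgeR p of 0.0457 and an adjusted p of 0.607, and DESeq2 gave an adjusted p of 0.481. It rested on 34 reads against 7 in all. Without mouse 19, 23, 5 or 8 Ccr3 no longer passed the unadjusted threshold.

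Siglecf (chr7:43351341-43359531 as spanned by its transcripts, plus strand) had 237, 245 and 199 CPM in mice 19, 23 and 24 and 124, 296 and 145 CPM in mice 5, 7 and 8. Mice 5 and 8 were below each Tet2+/+ mouse and mouse 7 was above each of them. The log2 fold change was -0.27 ± 0.34 (SE), with an edgeR adjusted p of 0.873. Without mouse 7 the fitted value was -0.75, the groups no longer overlapped and the unadjusted threshold was passed. Without that mouse 13.6% of all genes did not overlap in this direction. The Siglecf value was -0.04 without mouse 5 and -0.11 without mouse 8. Mouse 7 also had the highest summed level of 11 mature neutrophil markers, 121900 CPM against 11630 to 67080 CPM in the other mice. The other mice did not follow that order. Mouse 5 had 67080 CPM of these markers and the lowest Siglecf, and mouse 23 had 11630 CPM of them and 245 CPM of Siglecf. The part of neutrophils in the Siglecf level was not tested.

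Siglecf had enough reads, 2672 to 4597 per mouse, to describe its 6 annotated transcripts. Siglecf-201, which encodes protein, held 53.5% ± 3.66 (SD, n = 3) of the reads in Tet2+/+ mice and 53.2% ± 5.75 (SD, n = 3) in Tet2-/- mice. Siglecf-205, annotated as a retained intron, held 17.1%, 15.6% and 17.5% in mice 19, 23 and 24. It held 22.6%, 22.2% and 21.1% in mice 5, 7 and 8. These groups did not overlap, at 16.7% ± 1.003 against 21.95% ± 0.803 (SD, n = 3), and the exact permutation test gave p = 0.1, the smallest possible here. Siglecf-205 was singled out after its values were seen, as 1 of 6 transcripts. Shares were also read for Il5ra, Prg2, Prg3 and Ear2, and how often they separate over all transcripts was not computed. Siglecf-203 had the lower mean share in Tet2-/- mice, 18.96% ± 1.32 against 14.0% ± 4.61 (SD, n = 3), and its groups overlapped.

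**Figure D3:**
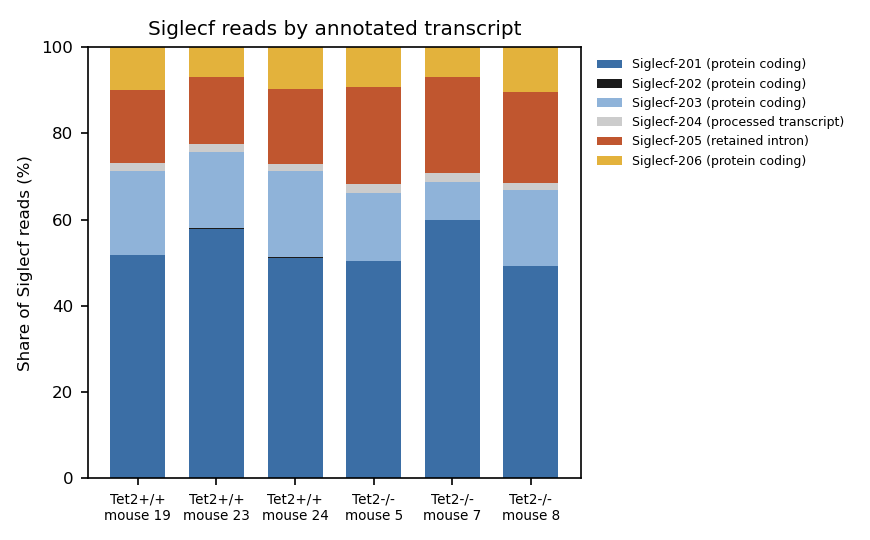
Share of the Siglecf reads, in percent, assigned to each of the 6 annotated transcripts, 1 stacked bar per mouse. The retained-intron transcript Siglecf-205 took 15.6% to 17.5% in Tet2+/+ mice and 21.1% to 22.6% in Tet2-/- mice, and Siglecf-201 took about the same share in both genotypes. Siglecf-205 was singled out after its values were seen, and no share over all transcripts was computed.

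Prg2, major basic protein (chr2:84980461-84983632, plus strand), was 36.2, 27.3 and 44.6 CPM in mice 19, 23 and 24. It was 10.1, 15.8 and 31.2 CPM in mice 5, 7 and 8. Mice 5 and 7 were below the Tet2+/+ range and mouse 8 was within it. The log2 fold change was -0.92 ± 0.42 (SE), with an edgeR p of 0.0631 and an adjusted p of 0.638. It kept its sign under each setting tried, between -1.48 and -0.63, and passed the unadjusted threshold in edgeR without mouse 8 (-1.48), with no filter on low counts and with scaling by library size alone.

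Prg3, the homologue that lies next to Prg2 (chr2:84988215-84993886, plus strand), was 7.90, 24.4 and 8.31 CPM in Tet2+/+ mice 19, 23 and 24. In Tet2-/- mice 5, 7 and 8 it was 1.36, 11.9 and 5.05 CPM. Mouse 7 stood above mice 19 and 24, so the groups overlapped. The log2 fold change was -1.16 ± 0.79 (SE), with an edgeR adjusted p of 0.753. Without mouse 7 it was -2.10, the groups no longer overlapped and the unadjusted threshold was passed, whereas it was -0.43 without mouse 23 and -0.67 without mouse 5. The neighbours did not share one order of mice, as Prg3 was highest in mouse 23, where Prg2 was the lowest of the Tet2+/+ group.

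Epx, eosinophil peroxidase (chr11:87864000-87875536, minus strand), had 12, 23 and 64 reads in mice 19, 23 and 24 and 11, 26 and 33 reads in mice 5, 7 and 8. In CPM these were 0.718, 1.23 and 4.51 against 0.348, 1.67 and 1.79. Mouse 24 held most of the Tet2+/+ reads, and without it the fitted log2 fold change went from -0.77 ± 0.86 (SE) to 0.36. The edgeR adjusted p was 0.859.

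Among the eosinophil-associated ribonucleases, Ear2 (chr14:44102654-44103534, plus strand) carried nearly all the signal. It was 9.57, 25.2 and 20.8 CPM in mice 19, 23 and 24 and 6.07, 43.5 and 11.3 CPM in mice 5, 7 and 8. Mouse 7 was the highest and mouse 5 the lowest of all, and the log2 fold change was 0.13 ± 0.72 (SE), with an edgeR adjusted p of 0.982. Its sign was not stable, at -1.10 without mouse 7, -0.19 without mouse 19 and -0.13 with scaling by library size alone. Ear6 had 0, 1 and 12 reads in Tet2+/+ mice and 9, 10 and 0 reads in Tet2-/- mice, with no order between genotypes. Ear1 had 1.04, 0 and 3.23 reads in Tet2+/+ mice and 0, 4.29 and 0 in Tet2-/- mice, so no level could be told from the floor in 4 of the 6 mice.

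Because reads can pass between near copies, the Ear family was also summed over 17 genes, 10 of them pseudogenes. Of these, 12 had 0 reads in each mouse, including Ear10 and Ear14, and Ear2 made up 94.6% to 99.8% of the family's reads. The sum was 9.63, 25.2 and 21.9 CPM in mice 19, 23 and 24 and 6.42, 44.5 and 11.9 CPM in mice 5, 7 and 8. The family mean was 18.9 CPM ± 8.21 (SD, n = 3) against 20.9 CPM ± 20.6 (SD, n = 3), and the 6 mice stood in the same order by this sum as by Ear2. Rnase2b, a ribonuclease of the same cluster, had 0 reads in each Tet2+/+ mouse and 1, 1 and 10 reads in mice 5, 7 and 8.

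**Figure D4:**
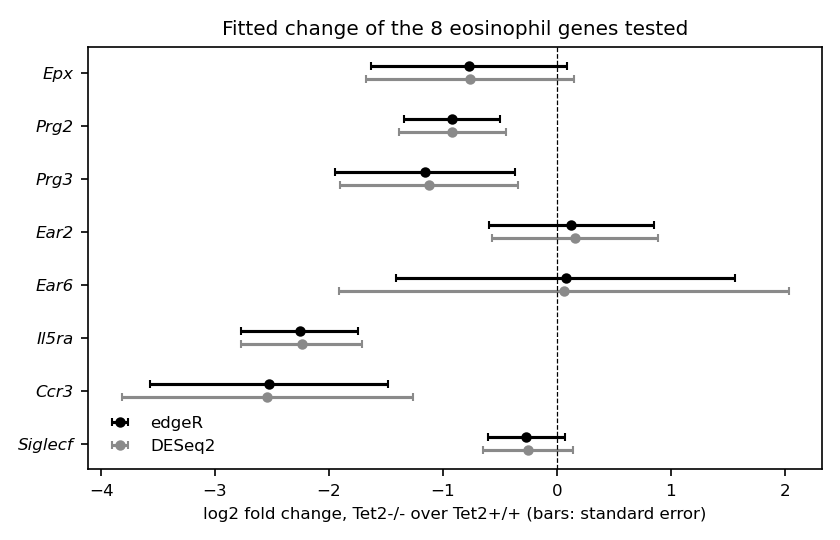
Fitted log2 fold change (Tet2-/- over Tet2+/+) of the 8 eosinophil genes tested, with edgeR in black and DESeq2 in grey. Points are estimates, bars are 1 standard error and the dashed line marks no change. Il5ra lay at -2.26 in edgeR and -2.24 in DESeq2, and the bars of Epx, Ear2, Ear6 and Siglecf crossed 0.

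The sum over the 9 genes was 301, 346 and 290.5 CPM in mice 19, 23 and 24 and 145, 374 and 196 CPM in mice 5, 7 and 8. The means were 312 CPM ± 29.6 (SD, n = 3) and 239 CPM ± 120 (SD, n = 3). Siglecf supplied most of this sum, and mouse 7 alone stood above the Tet2+/+ range.

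Other genes of the IL-5 receptor pathway were not lower with Il5ra. Of 18 such genes, 0 passed the adjusted threshold in edgeR and 0 in DESeq2, and at an unadjusted p under 0.05 none was lower and 4 were higher (beside 3% of all genes), Csf2rb, Lyn, Mcl1 and Ptpn11, with 16 of 18 fitted values above 0 and a median log2 fold change of 0.25. Groups did not overlap, with Tet2-/- higher, in 4 of 18, beside 6.41% of all genes. These were the same 4 genes, so this is no further evidence. They depended on scaling and on single mice, as none of the 18 passed when libraries were scaled by size alone or when mouse 23 or mouse 24 was left out. The 16 of 18 depended on scaling too. With libraries scaled by size alone Il3ra, Stat5a, Stat5b, Ptpn6, Cish and Pim1 had fitted values below 0. Csf2rb, the common beta chain, was 504.5, 399 and 328.5 CPM in mice 19, 23 and 24 and 739, 630.1 and 538 CPM in mice 5, 7 and 8. Its log2 fold change was 0.63 ± 0.24 (SE), with an edgeR p of 0.031 and an adjusted p of 0.593, and it had a positive sign under each setting. Csf2rb2, a near copy that shares 10.73% of the 75-base runs of Csf2rb-206, gave 0.30 ± 0.34 (SE). Lyn, a Src-family kinase, gave 0.43 ± 0.18, Mcl1, a survival factor, 0.48 ± 0.18, and Ptpn11, a phosphatase, 0.45 ± 0.18 (SE). Lyn, Mcl1 and Ptpn11 are named because they passed the unadjusted threshold. The rule for naming gave Socs3 (0.77 ± 0.62) and Csf2ra (0.53 ± 0.27) beside Csf2rb, and neither passed with all mice. Csf2ra passed the unadjusted threshold without mouse 5, and Stat3 without mouse 8.

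Per transcript length, the beta chain exceeded the alpha chain in each mouse. The ratio of Csf2rb to Il5ra in TPM was 86.4, 27.9 and 44.6 in Tet2+/+ mice 19, 23 and 24, against 434, 171 and 591 in Tet2-/- mice 5, 7 and 8. Il5ra and Csf2rb had each separated in TPM, in opposite directions, so the ratio had to separate and is no further evidence. The ratio combines a lower Il5ra with a higher Csf2rb estimate, and Il5ra contributed the larger part, since the log2 fold changes were -2.26 and 0.63.

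**Figure D5:**
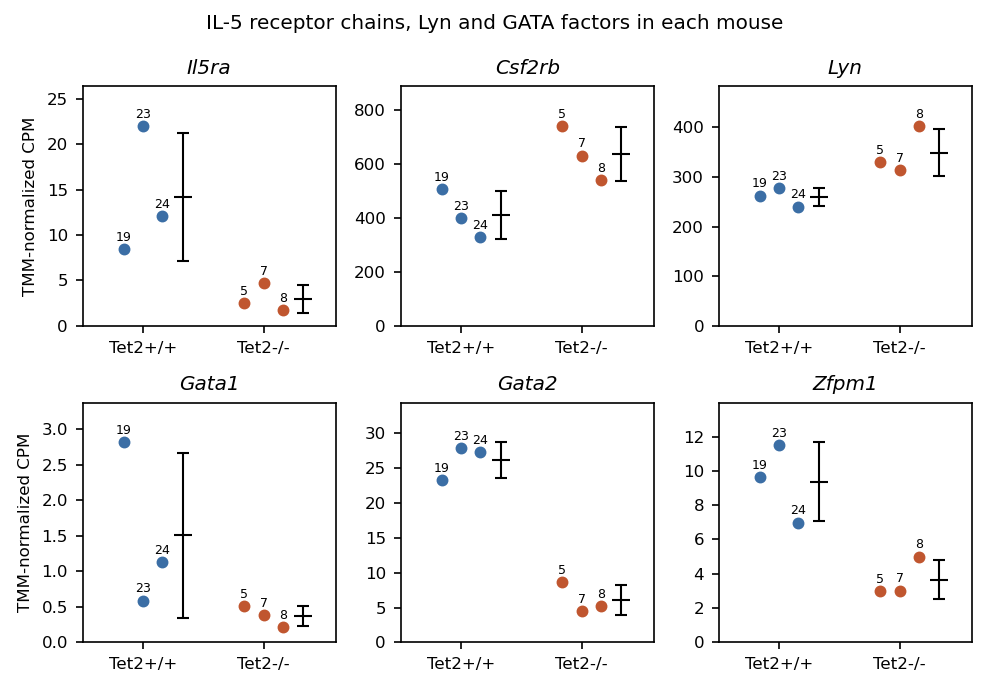
TMM-normalized CPM of the IL-5 receptor chains Il5ra and Csf2rb, the kinase Lyn and the factors Gata1, Gata2 and Zfpm1 in each mouse, on linear axes that start at 0. Points are mice, labelled by number, with the group mean as a dash and 1 SD as bars (n = 3). Il5ra, Gata1, Gata2 and Zfpm1 were lower in each Tet2-/- mouse than in any Tet2+/+ mouse, and Csf2rb and Lyn were higher. Over all genes tested, 7.94% did not overlap in the lower direction and 6.41% in the higher. The Gata1 groups lay close, at 0.589 CPM in mouse 23 against 0.506 CPM in mouse 5.

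Of 14 transcription factors of the eosinophil lineage, 4 were lower at an unadjusted p under 0.05 in edgeR (Gata1, Gata2, Zfpm1 and Id2), none was higher, and 0 passed the adjusted threshold, beside 5.12% of all genes lower and 3% higher at the unadjusted one. DESeq2 called Gata2 and Zfpm1 lower at an adjusted p of 0.05, beside 1.83% of all genes. On length-scaled counts DESeq2 called Gata2 alone, and the Zfpm1 adjusted p went from 0.0158 to 0.284. Gata2 and Zfpm1 passed the unadjusted threshold under each setting, but the count fell to 2 without mouse 8, Gata1 was lost without mouse 19, 7 or 8 and with length-scaled counts in edgeR, and Id2 without mouse 23, 24, 5 or 8. Other settings added calls. Cebpb was higher without mouse 23 or 7, Cebpe without mouse 8, and Xbp1 without mouse 7, with no filter and in DESeq2. Cebpa was lower in DESeq2, with no filter, with library size only and without mouse 19 or 5. With no filter Gata2 also passed the adjusted threshold in edgeR. The list as a whole was balanced, with 7 fitted values below 0, 7 above 0 and a median of 0.01. Groups did not overlap, with Tet2-/- lower, in 4 of 14 (Gata1, Gata2, Zfpm1 and Etv6), beside 7.94% of all genes. Gata2, a factor of progenitors, mast cells and eosinophils, was 23.3, 27.9 and 27.3 CPM in mice 19, 23 and 24 and 8.61, 4.44 and 5.21 CPM in mice 5, 7 and 8. Its log2 fold change was -2.10 ± 0.30 (SE), with an edgeR p of 0.000195, an adjusted p of 0.117 and a DESeq2 adjusted p of 5.4e-08, and over all settings the adjusted p reached 0.393. Zfpm1, which encodes the GATA partner FOG1, was 9.63, 11.5 and 6.97 CPM against 2.97, 3.02 and 4.99 CPM, with a log2 fold change of -1.36 ± 0.35 (SE) and an edgeR adjusted p of 0.419. Gata1 was scarce and highest in mouse 19 (2.81 CPM), at 1.51 CPM ± 1.16 in Tet2+/+ mice and 0.370 CPM ± 0.145 (SD, n = 3) in Tet2-/- mice. Its groups lay close, at 0.589 CPM in mouse 23 (11 reads) and 0.506 CPM in mouse 5 (16 reads). Id2, an inhibitor of helix-loop-helix factors, had a log2 fold change of -0.69 ± 0.25 (SE). Trib1, a pseudokinase that regulates C/EBPα, had a log2 fold change of 1.54 ± 1.13 (SE) and reached 508 CPM in mouse 7. Gata1 and Id2 are named because they passed the unadjusted threshold, outside the rule for naming.

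Of 9 cytokines and chemokines that act on eosinophils, among them ligands of Il5ra and Ccr3, 2 had enough reads to be tested, and Il33 and the eotaxins Ccl11 and Ccl26 had 0 reads in each mouse. Ccl5, a chemokine that Ccr3 can bind, was 15.9 CPM ± 2.37 in Tet2+/+ mice and 14.0 CPM ± 8.01 (SD, n = 3) in Tet2-/- mice. The eotaxin Ccl24 was 0.833 CPM ± 0.296 against 1.34 CPM ± 1.53 (SD, n = 3). Neither passed the edgeR test.

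Of 14 further genes of the Ear family or known from eosinophils, 11 were tested and 1 was higher at an unadjusted p under 0.05, Pirb, beside 3% of all genes, with 0 past the adjusted threshold in edgeR or DESeq2. Pirb was lost with filterByExpr, with scaling by library size alone and without mouse 23, 24, 5 or 7. Pirb, an inhibitory receptor of myeloid cells, was 372, 285 and 224.5 CPM in mice 19, 23 and 24 and 608, 555 and 315 CPM in mice 5, 7 and 8, and mouse 8 lay within the Tet2+/+ range. Cysltr2, a leukotriene receptor, gave -1.27 ± 0.68 (SE), and Itga4, an integrin chain, -0.87 ± 0.41 (SE), and neither passed. The summed level of the 14 genes was 1675 to 1926 CPM in Tet2+/+ mice and 1731 to 2410 CPM in Tet2-/- mice.

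Basophils and mast cells use several of the same genes, and their markers were read in the same mice. Of 12 such markers 7 were tested, and 3 were lower at an unadjusted p under 0.05 (Cpa3, Cd200r3 and Cma1), beside 5.12% of all genes. Cma1, a chymase, had 1, 1 and 15 reads in Tet2+/+ mice and 0, 0 and 1 in Tet2-/- mice, so it entered the test through mouse 24. DESeq2 called 2 lower at an adjusted p of 0.05 (Cpa3 and Cd200r3), beside 1.83% of all genes. The summed level ran from 410 to 499.6 CPM in Tet2+/+ mice and from 174 to 358 CPM in Tet2-/- mice, and the mast cell tryptases Tpsb2 and Tpsab1 had 0 reads in each mouse. Most of that sum came from Cpa3 in Tet2+/+ mice and from Hdc in Tet2-/- mice. Cpa3 was lower in mean, at 321 CPM against 50.7 CPM, and Hdc was higher, at 97.6 CPM against 195 CPM. The sum is therefore not read as a change of the markers as a set. Cpa3, a carboxypeptidase of mast cells and basophils, was 263.5, 362.5 and 336 CPM against 87.7, 47.5 and 16.8 CPM, a log2 fold change of -2.66 ± 0.55 (SE) with an edgeR adjusted p of 0.284 and a DESeq2 adjusted p of 0.000194, which reached 0.661 over all settings. Like Il5ra, Cpa3 was highest in mouse 23 and lowest in mouse 8, whereas Cd200r3 was highest in mouse 19 and Mcpt8 in mouse 24. Cd200r3, a receptor of the same cells, was 12.4, 4.39 and 4.37 CPM against 0.917, 1.80 and 2.50 CPM, with a DESeq2 adjusted p of 0.0466. Cma1 was lost without mouse 24, 5, 7 or 8. Hdc, which makes histamine, had the opposite sign, at 0.996 ± 0.671 (SE), and Mcpt8, the defining protease of basophils, was 10.5 CPM ± 6.27 against 5.25 CPM ± 1.94 (SD, n = 3). At the unadjusted threshold in edgeR, Hdc passed as higher without mouse 19 and Mcpt8 as lower without mouse 23. The part of basophil or mast cell precursors in the Il5ra and Prg2 values was not tested.

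Some other myeloid cells can carry Siglecf or Ear2, and the summed levels of their markers overlapped between genotypes. The 12 monocyte and macrophage markers summed to 4731 to 13440 CPM in Tet2+/+ mice and 5578 to 19270 CPM in Tet2-/- mice, with 1 of 12 higher at an unadjusted p under 0.05 (Ly6c2), beside 3% of all genes. Chil3 and Ly6c2 supplied most of this sum, and Chil3 alone ran from 1169 CPM in mouse 8 to 15470 CPM in mouse 5. The sum therefore says little about scarcer macrophage genes, such as Marco, C1qb and Pparg at means of 1.355, 23.4 and 1.73 CPM. Ly6c2, a monocyte surface protein, was 1623, 1428 and 1049 CPM in mice 19, 23 and 24 and 2993, 2124 and 2495 CPM in mice 5, 7 and 8. These groups did not overlap, and DESeq2 called it higher at an adjusted p of 0.0248, beside 0.331% of all genes, while in edgeR it missed the unadjusted threshold without mouse 24. The 11 mature neutrophil markers all had fitted values above 0 (11 of 11, median 0.94 on the log2 scale), but 0 passed the unadjusted threshold in edgeR or DESeq2. In edgeR Ly6g passed it as higher without mouse 19, and Cxcr2, Lcn2 and Ly6g did without mouse 8. Ltf, Camp, Mmp9 and Cd177 had fitted values below 0 under some settings. The summed level of the 11 markers overlapped, at 11630 to 59600 CPM in Tet2+/+ mice and 25940 to 121900 CPM in Tet2-/- mice. Fitted values that did not pass the unadjusted threshold in edgeR ran both ways, with Marco at 2.03 ± 1.54, C1qb at 1.34 ± 0.92 and Pparg at -1.23 ± 0.61 among the macrophage markers, Ly6g at 1.77 ± 1.04, Flt3 at 1.75 ± 0.80 and Elane at 1.195 ± 0.635 (SE). Flt3 passed the unadjusted threshold in DESeq2. Of 6 primary granule genes 1 was higher (Ms4a3), of 5 blast and progenitor genes 1 was lower (Cd34), and of 4 megakaryocyte genes 1 was lower (Itga2b), all at an unadjusted p under 0.05, where 5.12% of all genes were lower and 3% higher, and none at an adjusted one in edgeR. Ms4a3 was lost without mouse 23, 24 or 5 and with scaling by library size alone, where Mpo was lower instead, and Cd34 and Itga2b were lost without mouse 23 or mouse 5. T cell markers summed to 4.07 to 18.4 CPM. Erythroid markers summed to 143 CPM in mouse 19 and 5.35 to 15.1 CPM in the other mice, and none passed.

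The genes whose profile over the 6 mice lay nearest to the mean profile of the 6 members that averaged 1 CPM or more (Epx, Prg2, Prg3, Il5ra, Siglecf and Ear2) were Hist4h4, Gm9821, Bank1, Kdm6a and Btnl9. Likeness was the root mean square difference between centred log2(CPM + 1) values over the 13833 genes that averaged 1 CPM or more. It was 0.168 for Hist4h4 and 0.232 for Btnl9. The members' own profile was 0.00, 0.69 and 0.56 in mice 19, 23 and 24, against -1.15, 0.29 and -0.39 in mice 5, 7 and 8, so it was lowest in mouse 5. Single members lay farther from their own mean, from 0.374 for Siglecf to 0.662 for Il5ra, than these 5 genes did. The comparison is a description over 6 libraries of unequal depth that were scaled together.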

How the data were processed

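Marrow blasts of 6 mice were profiled by unstranded RNA-seq. The authors quantified reads with Salmon 0.12.0 against the Ensembl transcripts of GRCm38 (mm10), and the deposited tables give, per transcript, estimated counts, TPM and an effective length. Gene values here are sums over 136288 transcripts, of which 112 had no gene in the annotation (0.0307% to 0.0416% of reads). Estimated counts were rounded. Genes whose normalized counts summed to less than 10 were left out, and 22170 were tested with edgeR 4.0.16 (TMM, quasi-likelihood, Benjamini-Hochberg) in R 4.3.3. The common biological coefficient of variation was 43.6%. DESeq2 1.42.0 (the authors ran another version of DESeq2, on length-scaled values), other filters and scalings, and the omission of each mouse were alternatives. The fit was tested on simulated data. RefSeq promoters and GENCODE transcripts were searched with Biopython 1.88.

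The members and lists were chosen with earlier results of these data known. Named were all members, Tet2, Cebpa and Gata2, up to 3 genes per list with the largest fitted change averaging 1 CPM or more, and the 5 genes of nearest profile. Other genes were named after their values were seen, because a small count turned on them (Ly6c2, Cma1, Gata1, Id2, Lyn, Mcl1, Ptpn11, Etv6) or as a near copy or defining gene (Csf2rb2, Rnase2b, Mcpt8). Chil3 was named because it supplied much of a sum, and others, such as Cebpb, Xbp1, Stat3 and Cxcr2, because their call or sign changed with the setting. Lists covered IL-5 receptor signalling, lineage transcription factors, ligands, further Ear and eosinophil genes, and markers of basophils and mast cells, monocytes and macrophages, neutrophils, primary granules, blasts, B and plasma cells, T cells, erythroid cells and megakaryocytes.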

Additional observations from a re-analysis of the deposited data

How the results depend on the processing

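With 10 genes called over all genes in edgeR, DESeq2 called 385, edgeR on length-scaled counts 5, DESeq2 on length-scaled counts 386 and edgeR with no filter on low counts 66, and leaving out each mouse gave 0 to 7. Members called at an adjusted p were 0 in edgeR, 1 with DESeq2 and 1 with DESeq2 on length-scaled counts (Il5ra, adjusted p 0.00264 and 0.0112), and 0 without any 1 mouse. At an unadjusted p there were 2, and 1 with DESeq2 on length-scaled counts or edgeR's filterByExpr, 3 with DESeq2, with no filter or with library size only (adding Prg2, DESeq2 p 0.0495), and 1 to 4 without a mouse (3.58% to 5.54% of all genes were then lower), where omission of mouse 7 gave Prg3, Il5ra, Ccr3 and Siglecf, omission of mouse 8 gave Prg2 and Il5ra, and omission of mouse 19, 23 or 5 left Il5ra alone. Members without overlap were 1, 2 with library size only (Il5ra and Ccr3), and 1 to 4 without a mouse, where 12% of all genes and 10.9% to 15% of all genes, respectively, did not overlap in that direction, against 7.94% with all mice. Without mouse 7 the log2 ratio of the Ear family sums was -1.05, against 0.15 with all mice and a range over omissions of -1.05 to 0.58. For the sum of the members the log2 ratio was -0.39, and -0.87 to -0.13 over omissions.

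Scaling by library size alone shifted the median fitted change over all tested genes by -0.17 (log2), and reversed Ear2 (-0.13) and Ear6 (-0.16). Omissions reversed Ear2 (-0.19 without mouse 19, -1.10 without mouse 7, range -1.10 to 0.57), Ear6 (-0.52 without mouse 19, -0.47 without mouse 23, -0.84 without mouse 7, range -0.84 to 3.17) and Epx (0.36 without mouse 24, range -1.19 to 0.36). Il5ra, Ccr3, Prg2, Prg3 and Siglecf kept a negative sign in each fit that gave them a value. The causes were not tested. Under filterByExpr Ccr3 and Ear6 had no value. No paired analysis was possible because the mouse numbers of the genotypes differ. With 3 mice a group and 0 to 64 reads for Epx, Ccr3, Ear1 and Ear6, a missing call for those genes is not read as equal levels. The size of difference that could be detected in them was not computed.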
